A study of Homo sapiens and Mus musculus with 8 samples.

Results

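FYB1 and 5 genes whose proteins work with it in the activation of integrins, LCP2, SKAP1, SKAP2, GRAP2 and FERMT3, were followed in human K562 cells cultured with Jiyuan oridonin A (JOA). These are 6 of the 35141 genes of the K562 table. FYB1 was picked by its rise in these libraries, so its difference between JOA and control is given as a description and without a p-value. The 5 partners were listed by the role of their proteins. K562 is an established human cell line of chronic myeloid leukemia (CML) that carries native BCR-ABL, and JOA is an ent-kaurene diterpenoid derived from Isodon rubescens. The mRNA of K562 cells was sequenced after 48 h without JOA (control, 2 libraries) or with 2 μM of JOA (2 libraries), to ask which genes respond when the compound is applied to CML cells. The study also holds libraries of the mouse line BaF3-T315I, which were not analysed here. Neither the labels nor the methods say whether the 2 libraries of a group came from separate cultures, and the general statement on repeats in the methods gives another number than that of these libraries. Each p-value therefore measures only the spread between these libraries.

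FYB1, also known as ADAP, is a scaffold protein of T cells, platelets and myeloid cells that has no enzyme activity. In stimulated cells it is phosphorylated on tyrosine and bound by the SH2 domain of SLP-76, the product of LCP2. GADS, the product of GRAP2, holds SLP-76 at the membrane adaptor LAT. SKAP55 (SKAP1), known mainly from T cells, and its close relative SKAP-HOM (SKAP2), found in many blood cells, bind to FYB1 and link it to the GTPase Rap1. Active Rap1 brings talin to the tail of the integrin β chain, where talin and kindlin-3, the product of FERMT3, switch the integrin to its high-affinity form.

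FYB1 lies on chromosome 5 of GRCh38 from 39105255 to 39274528, on the minus strand. RefSeq gives it start sites at 39270649 and 39219563, which are 51086 bases apart, and LCP2 on the same chromosome (170246237 to 170298227, minus strand) has 1. The windows from 250 bases before to 50 bases after these starts are shown because FYB1 and LCP2 had the largest log2 fold changes of the 5 members tested. They come from the RefSeq promoter table on GRCh38.p14, read 5′ to 3′ on the strand of the gene. Capitals mark GGAA, the core of the sites of ETS factors, and AGATAA, a form of the GATA site, each on either strand.

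FYB1 upstream start, chr5:39270600-39270899: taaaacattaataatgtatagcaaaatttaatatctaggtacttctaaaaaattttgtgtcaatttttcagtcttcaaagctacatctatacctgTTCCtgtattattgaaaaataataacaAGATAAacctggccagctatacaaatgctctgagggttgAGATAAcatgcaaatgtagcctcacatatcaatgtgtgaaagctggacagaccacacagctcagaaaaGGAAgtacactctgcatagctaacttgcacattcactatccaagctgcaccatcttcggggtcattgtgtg

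FYB1 downstream start, chr5:39219514-39219813: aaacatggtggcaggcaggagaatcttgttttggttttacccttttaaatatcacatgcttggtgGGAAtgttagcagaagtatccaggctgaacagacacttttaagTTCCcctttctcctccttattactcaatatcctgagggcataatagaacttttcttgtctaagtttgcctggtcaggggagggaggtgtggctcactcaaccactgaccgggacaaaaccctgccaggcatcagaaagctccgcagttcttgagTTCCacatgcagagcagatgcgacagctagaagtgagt

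LCP2, chr5:170297728-170298027: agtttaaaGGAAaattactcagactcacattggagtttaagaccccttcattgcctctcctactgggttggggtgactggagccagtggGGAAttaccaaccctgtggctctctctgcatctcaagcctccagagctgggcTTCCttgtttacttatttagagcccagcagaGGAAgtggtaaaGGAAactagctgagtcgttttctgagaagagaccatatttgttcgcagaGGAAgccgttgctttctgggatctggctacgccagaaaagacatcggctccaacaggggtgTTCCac

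The upstream FYB1 window held 2 AGATAA matches, which begin 128 and 89 bases before the start site, and 2 GGAA matches. The downstream window held 3 GGAA matches and no AGATAA, and the LCP2 window held 7 GGAA matches and no AGATAA. A window of FERMT3 and a window of GRAP2, not shown, also held 7 GGAA matches each. No marked matches overlapped. Of the 35116 RefSeq windows of this length, 10.3% held at least 1 AGATAA, 1.02% held at least 2, 95.5% held at least 1 GGAA and 16.1% held 6 or more GGAA. The upstream FYB1 window had 36% of G and C bases, where the median over all windows was 58.7%. The shares were not adjusted for base content, so they do not tell how rare 2 AGATAA are in windows like this one. The E-box CACGTG, a site of MYC and related factors, was in none of the 8 windows of the 5 members that the table covers, and in 7.26% of all windows. SKAP1 was not matched. The deposited values are per gene, so reads from the 2 FYB1 starts were not told apart. A match of letters is a description and not a site of binding.

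FYB1 was expressed in every library. Its level was 5.94 and 5.04 FPKM in control replicates 1 and 2 and 25.0 and 28.4 FPKM in JOA replicates 1 and 2, where FPKM are fragments per kilobase of gene and 1000000 reads. Both JOA libraries thus lay far above both controls, and the controls were closer to each other than to any JOA library. The means were 5.49 ± 0.638 FPKM (SD, n = 2) and 26.7 ± 2.41 FPKM (SD, n = 2), which is 4.87 times as high with JOA. On the scale of log2(FPKM + 0.5) the fold change was 2.18 (standard error, SE, 0.13). All fold changes were fitted on the 15635 genes that reached a mean of 0.5 FPKM, of which only 3 had a larger positive fold change than FYB1.

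The level of FYB1 rested on many reads. The depth of each library (22625603 to 23292640 reads) was not taken from a source. It was set so that FPKM times exon length gave whole reads for most genes with few reads. With these depths 96.3% of the genes with fewer than 1000 reads had whole reads, a share that the setting of the depth itself favours. For FYB1 the exon length of GENCODE 29, 8850 bases, did not give whole reads in the libraries. The smallest length that did was 6100 bases, with 844 and 707 reads in the controls and 3525 and 3922 reads in the JOA libraries. The gene model behind the deposited FYB1 values therefore differs from that of GENCODE 29. With the reads held fixed, another length changes the level of FYB1 relative to other genes and not the ratio of its FPKM between libraries. Another gene model could also count other reads, and its effect on that ratio was not tested. With 8850 bases and the same reads its levels would be 4.09 and 3.47 FPKM in the controls, against 17.2 and 19.6 FPKM in the JOA libraries. From the summed reads the level with JOA was 4.86 times that of the controls, with a 95% counting interval of 4.60 to 5.14. The libraries carry no stated molecular identifiers and a read is not always a molecule of its own, so counting intervals cover counting error only. In bulk RNA, more cells that express a gene and more RNA per cell cannot be told apart.

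LCP2, the gene of SLP-76, had the largest log2 fold change of the 4 partners tested. It had 2.21 and 2.89 FPKM in the controls (373 and 482 reads) and 5.09 and 7.74 FPKM with JOA (853 and 1268 reads). The groups did not overlap, and JOA replicate 2 was the highest. The means were 2.55 ± 0.482 and 6.42 ± 1.87 FPKM (SD, n = 2 each). The log2 fold change was 1.16 (SE 0.24), with an adjusted p of 0.236 from limma, a moderated linear model over all genes tested. Leaving out JOA replicate 2 gave 0.88 and leaving out JOA replicate 1 gave 1.44, and over the alternatives that tested LCP2 the adjusted p from limma ran from 0.0902 to 0.827. Exons of LCP2 share bases with C5orf58 on the opposite strand, which was listed at 0.0807 to 0.298 FPKM. The library kit keeps the strand, but whether the counting used it is not stated.

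**Figure D1:**
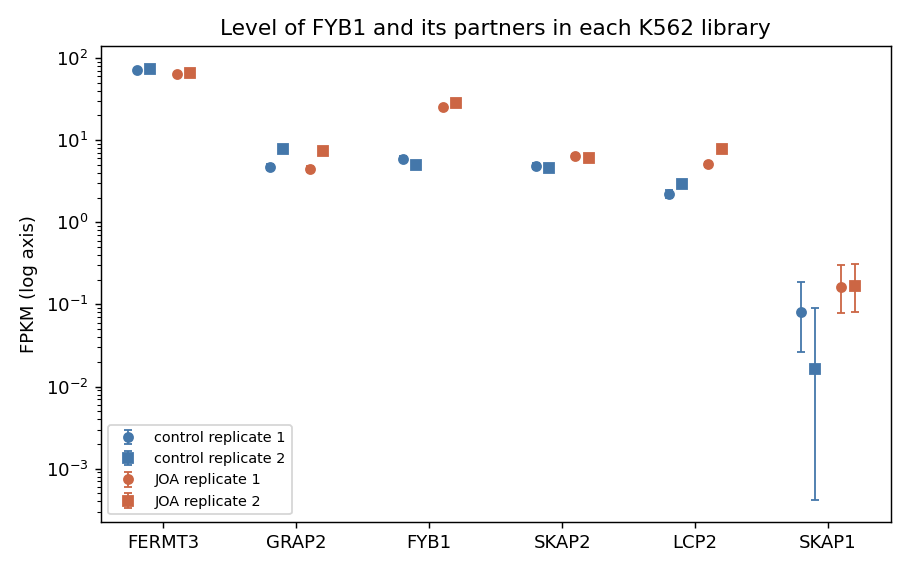
Level of each member in FPKM (log axis) in the 2 control and 2 JOA libraries of K562 cells. Bars are exact 95% Poisson intervals of the reads and are narrower than most symbols. FYB1 stands at 5.04 to 5.94 FPKM in the controls and at 25.0 to 28.4 FPKM with JOA, while SKAP1 rests on 10 reads or fewer in each library.

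SKAP2, the binding partner of FYB1 in most blood cells, had a slightly higher level in each JOA library than in either control. It had 4.81 and 4.61 FPKM in the controls, against 6.42 and 5.98 FPKM in the JOA libraries. The log2 fold change was 0.36 (SE 0.12, limma adjusted p = 0.264), below the fold threshold of 0.58. Measured from the median over all tested genes, it ran from 0.19 to 0.34 over the alternatives. In the annotation SKAP2 is on chromosome 7 from 26667062 to 26995239 and SKAP1 on chromosome 17 from 48133440 to 48430275, both on the minus strand. SKAP1, the partner known from T cells, was near the limit of detection. It had 5 and 1 reads in the controls and 10 reads in each JOA library, which is 0.0811, 0.0164, 0.163 and 0.167 FPKM. Its level was below the minimum for the test. From the summed reads, 6 and 20, it was 3.37 times as high with JOA, with a counting interval of 1.31 to 10.3, which carries no spread between libraries. On the FPKM scale, SKAP2 was 35.8 to 281 times as high as SKAP1 in the 4 libraries.

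GRAP2, the gene of the adaptor GADS, did not separate JOA from control. It lies on chromosome 22 from 39901082 to 39973721, on the plus strand. It had 4.70 FPKM in control replicate 1 and 4.43 FPKM in JOA replicate 1, and 7.89 FPKM in control replicate 2 and 7.45 FPKM in JOA replicate 2. The libraries with the same number were close to each other, and both replicate 2 libraries lay above both replicate 1 libraries. On the log2 scale replicate 2 exceeded replicate 1 by 0.69 in the controls and by 0.69 with JOA. The log2 fold change between JOA and control was -0.077 (SE 0.33, limma adjusted p = 0.909). It was 0.27 without control replicate 2 or without JOA replicate 1, -0.42 without either of the other libraries, and 0.013 with TPM scaling, so no direction is given for GRAP2.

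FERMT3, the gene of kindlin-3 (chromosome 11 from 64206678 to 64223886, plus strand), was the most abundant of the 6 genes. Its level was 72.2 and 74.5 FPKM in the controls, against 64.7 and 66.6 FPKM in the JOA libraries. Both JOA libraries were below both controls, and libraries of a group differed by less than the groups did. The difference was small, with a log2 fold change of -0.16 (SE 0.091, limma adjusted p = 0.390). It was negative under every alternative tried, between -0.26 and -0.045. Exons of FERMT3 share bases with TRPT1 on the opposite strand, which had 8.72 to 11.1 FPKM.

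Of the 4 partners that could be tested, limma called 0 at an adjusted p under 0.05 and a log2 fold change beyond 0.58 in either direction, as it called 0% of all genes in either direction. With voom weights on recovered reads limma called 0 partners and 1 gene in all. That gene was FYB1, which was picked on these same libraries, so the call restates the choice and is no test of it. With this fold and limma's p under 0.05 before adjustment, the thresholds of the study, 1 partner (LCP2) was higher and 0 were lower. Among all genes tested 5.38% were higher and 2.38% lower by this rule. Scaling moved the balance of these calls: 841 genes were higher and 372 lower with the values as deposited, TPM scaling gave 1421 and 252, median-ratio scaling 597 and 571, and quantile normalization 504 and 538. Without the fold, 1787 genes passed on the higher side and 910 on the lower side. FYB1, LCP2 and SKAP2 had both JOA libraries above both controls, as did 36.8% of all genes tested, and FERMT3 had both below, as did 18.3%. FYB1 was chosen by this contrast, and the partners were listed with earlier results of these data known, so nothing is read from these counts.

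**Figure D2:**
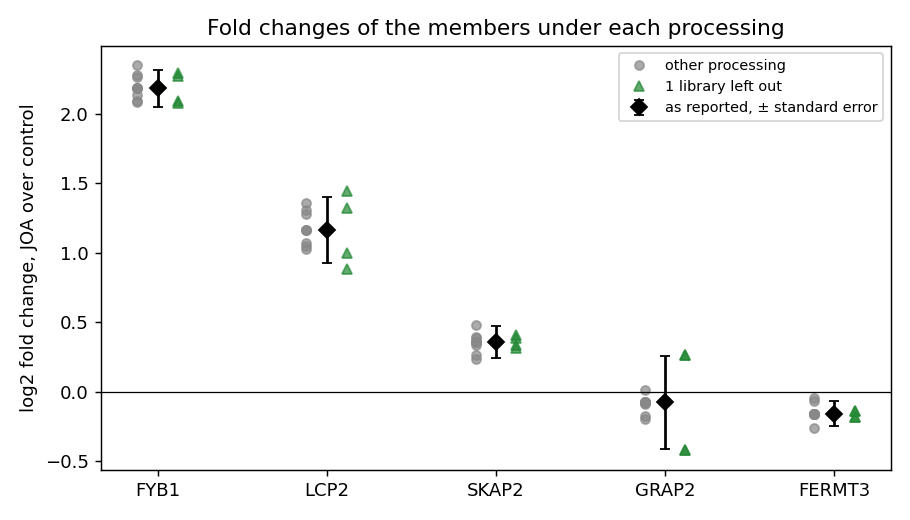
Log2 fold change of JOA over control for the 5 members tested. Diamonds give the reported value with its standard error, circles the other ways of processing and triangles the fits with 1 library left out. FYB1 stays between 2.08 and 2.35, and GRAP2 lies on both sides of 0.

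The order of the levels differed between control and JOA libraries. In the controls FERMT3 was highest and SKAP1 lowest, with GRAP2, FYB1 and SKAP2 between them at 4.61 to 7.89 FPKM. These neighbours were close: the libraries of GRAP2 overlapped those of FYB1 and SKAP2. With the exon length of GENCODE 29 and the same reads FYB1 would lie below SKAP2. LCP2 was below these genes in both controls. With JOA, FYB1 was second to FERMT3 in both libraries under either length, with the same reads. LCP2, SKAP2 and GRAP2 overlapped each other at 4.43 to 7.74 FPKM, so no order is given among them.

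The ratio of FYB1 to a partner within a library does not depend on the scaling of that library. FYB1 was 1.23 and 1.09 times SKAP2 in the controls and 3.89 and 4.75 times SKAP2 with JOA. Relative to LCP2, whose level was itself higher with JOA, FYB1 stood at 2.69 and 1.74 in the controls and at 4.91 and 3.67 with JOA. Relative to FERMT3 the ratios were 0.0823 and 0.0676 in the controls and 0.387 and 0.427 with JOA. For each of the partners SKAP2, LCP2, GRAP2 and FERMT3, both JOA ratios lay above both control ratios. Relative to SKAP1, with its few reads, the ratios overlapped, at 73.3 and 307 in the controls and 153 and 170 with JOA. FYB1 made up 6.60% and 5.31% of the summed FPKM of the 6 genes in the controls and 23.6% and 24.4% with JOA, while the share of FERMT3 was 80.3% and 78.5% in the controls and 61.1% and 57.2% with JOA. These ratios contain the values that picked FYB1 and are a description.

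**Figure D3:**
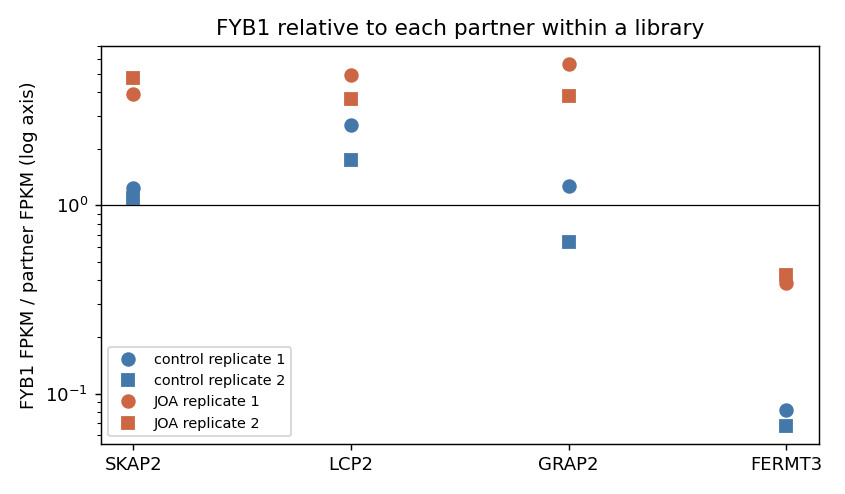
FPKM of FYB1 divided by the FPKM of each partner in the same library (log axis), with the line at equal levels. Against SKAP2 the controls stand at 1.09 and 1.23 and the JOA libraries at 3.89 and 4.75.

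Close relatives of the 6 genes were little expressed in K562 cells, apart from GRB2. Of 8 relatives only GRB2, the general adaptor of receptor tyrosine kinases and of BCR-ABL, reached the minimum mean. It had 50.7 ± 1.21 FPKM (SD, n = 2) without JOA and 53.6 ± 0.552 FPKM (SD, n = 2) with it, a log2 fold change of 0.081 (SE 0.091, limma adjusted p = 0.638). FYB2 and PRAM1, the other genes with the FYB fold, BLNK and CLNK, the relatives of LCP2, GRAP, and the kindlins FERMT1 and FERMT2 were below it.

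The genes that act with SLP-76 in receptor signaling were listed to see what else of the complex K562 cells express. Of 27 genes 17 could be tested, and 10 of them had both JOA libraries above both controls and 0 had both below (36.8% and 18.3% of all genes tested), with a median log2 fold change of 0.32 where all genes tested had 0.096. VAV1, the exchange factor of Rac that binds SLP-76, had 7.76 ± 0.260 FPKM (SD, n = 2) without JOA and 12.7 ± 0.319 FPKM (SD, n = 2) with it, a log2 fold change of 0.67 (SE 0.10, limma adjusted p = 0.226). PTPN6, the gene of the phosphatase SHP-1, had a log2 fold change of 0.61 and CBLB, a ubiquitin ligase, one of 0.51. BTK, the most abundant of these genes, had 29.6 and 31.0 FPKM on average. The T cell components LAT, ZAP70 and LCK, named after their values were seen, were at or close to 0. LAT had 0.0872 to 0.128 FPKM, ZAP70 0.0847 to 0.138 FPKM, and LCK was at 0 in all but 1 library.

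Rap1, proteins that regulate it in either direction and proteins that act on integrins were expressed with few exceptions. Of 31 listed genes 26 were tested, of which 12 were higher and 2 lower in both JOA libraries (36.8% and 18.3% of all genes tested), with a median log2 fold change of 0.12. RASGRP4 and RASGRP2 are exchange factors, RASGRP2 being the main activator of Rap1 in platelets. RASGRP4 had 9.90 and 10.2 FPKM in the controls, against 16.8 and 19.1 FPKM in the JOA libraries, a log2 fold change of 0.80 (SE 0.11, limma adjusted p = 0.226). RASGRP2 had 3.10 and 3.81 FPKM in the controls, against 5.24 and 7.70 FPKM in the JOA libraries, a log2 fold change of 0.80 (SE 0.22, limma adjusted p = 0.248). RASSF5, the gene of the Rap1 effector RAPL, had a log2 fold change of 0.58. CRKL, an adaptor and substrate of BCR-ABL, was the most abundant gene of this list, at 127 and 125 FPKM on average. APBB1IP, whose product RIAM joins Rap1 to talin and binds FYB1, had only 0.0328 to 0.111 FPKM and was named after its values were seen.

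Of 26 integrin subunits 10 were tested, and limma called 0 of them at an adjusted p under 0.05. In both JOA libraries 8 of the 10 were higher than in the controls and 0 lower (36.8% and 18.3% of all genes tested), and the median log2 fold change was 0.43. These counts depend in part on the minimum mean, which ITGAX, counted among the 8, reached only through its JOA libraries. Of the subunits not tested, ITGB7 and ITGB3 were named after their values were seen. ITGB7 was lower in both JOA libraries (0.402 and 0.359 against 0.154 and 0.178 FPKM). ITGB3 was higher in both (0.362 and 0.287 against 0.758 and 0.483 FPKM). ITGAM, the αM chain of the leukocyte integrin Mac-1 (CD11b), had 4.86 and 4.70 FPKM in the controls, against 10.7 and 13.9 FPKM in the JOA libraries, a log2 fold change of 1.26 (SE 0.16, limma adjusted p = 0.226). Its β chain ITGB2, the subunit that kindlin-3 binds in leukocytes, had 2.59 and 1.71 FPKM in the controls, against 4.58 and 4.30 FPKM in the JOA libraries, a log2 fold change of 0.92 (SE 0.20, limma adjusted p = 0.236). ITGAX, the chain of CD11c, had 0.396 ± 0.204 and 1.65 ± 0.165 FPKM (SD, n = 2 each). The most abundant subunit was ITGB1, with 45.4 and 53.0 FPKM on average.

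Among 17 tested regulators of actin that FYB1 is linked to, 9 were higher and 1 was lower in both JOA libraries (36.8% and 18.3% of all genes tested), with a median log2 fold change of 0.22. WAS, the gene of the Wiskott-Aldrich syndrome protein, had 13.8 and 14.6 FPKM in the controls, against 23.1 and 24.9 FPKM in the JOA libraries, a log2 fold change of 0.73 (SE 0.10, limma adjusted p = 0.226). CORO1A, an actin-binding protein of leukocytes, had 4.23 and 4.22 FPKM in the controls, against 7.11 and 7.20 FPKM in the JOA libraries. ARPC4, a subunit of the Arp2/3 complex that WAS activates, was lower, with 13.9 and 10.7 FPKM in the controls, against 7.71 and 5.81 FPKM in the JOA libraries. ACTR2, another subunit of that complex and the most abundant gene of the list, had 155 and 181 FPKM on average. In none of these lists was a gene called by limma at an adjusted p under 0.05. At an unadjusted p with the fold threshold, limma gave 2 higher and 0 lower among the signaling genes, 3 and 0 on the Rap1 list, 4 and 0 among the integrins and 4 and 1 among the actin regulators, where it gave 5.38% and 2.38% of all genes tested.

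**Figure D4:**
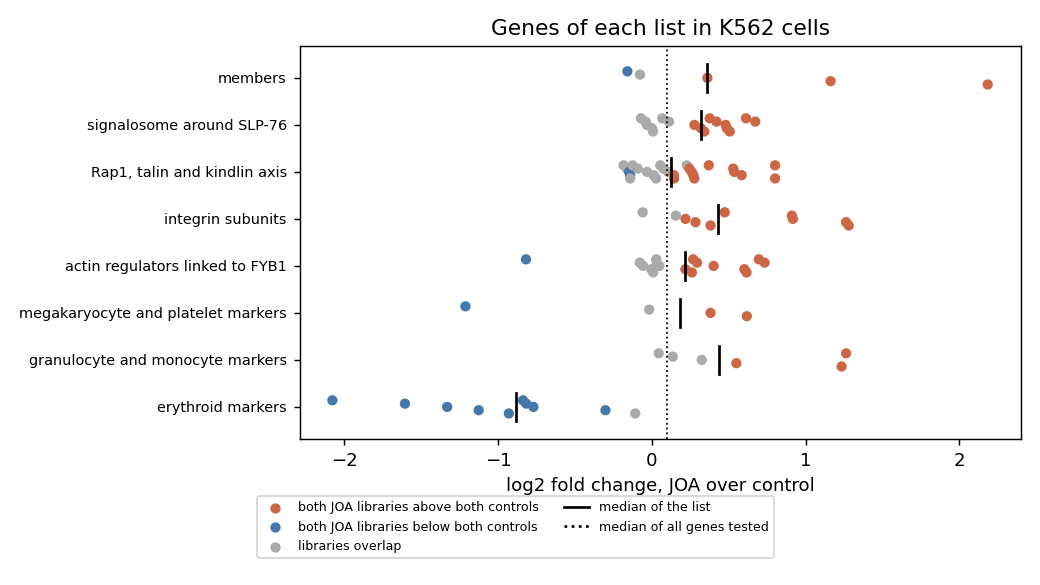
Log2 fold change of JOA over control of the tested genes of each list, 1 point per gene, with the median of the list (bar) and of all genes tested (dotted line, 0.096). Of the 10 integrin subunits 8 have both JOA libraries above both controls, and of the 10 erythroid markers 9 have both below. ITGAX, counted among the 8, reached the minimum mean only through its JOA libraries.

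Markers of cell types are given here as log2 fold changes, and limma called 0 of those tested at an adjusted p under 0.05. The 10 erythroid markers had negative log2 fold changes, with a median of -0.88, 9 of them were lower in both JOA libraries (18.3% of all genes tested), and their summed level was 5007 to 5336 FPKM in the controls and 1846 to 2691 FPKM with JOA. The largest differences were in the globin genes HBZ (-2.08), HBG1 (-1.61) and HBE1 (-1.33), HBE1 being the most abundant. GATA1, an erythroid factor that K562 cells are known to express, had 172 to 239 FPKM over the 4 libraries. Of 6 tested markers of granulocytes and monocytes 3 were higher in both JOA libraries (36.8% of all genes tested), and the 15 listed summed to 66.9 to 75.8 FPKM in the controls and 89.2 to 95.2 FPKM with JOA. The 3 were ITGAM, CSF3R, the receptor of G-CSF (1.23), and TYROBP (0.55). CSF3R reached the minimum mean only through its JOA libraries, at 0.842 and 2.97 FPKM. SPI1, the most abundant, had 42.1 and 46.6 FPKM on average. SPI1 and LYZ made up most of the summed level, and both overlapped between the groups. Of the markers below the minimum, named after their values were seen, MPO and CD14 had higher means with JOA and S100A8 and S100A9 lower means. The libraries of MPO, CD14 and S100A9 overlapped between the groups, and MPO was at 0 in JOA replicate 1. Those of S100A8 nearly met, at 0.0432 FPKM in control replicate 2 and 0.0430 FPKM in JOA replicate 1. No direction is read from these markers. Of 4 tested markers of megakaryocytes and platelets, cells in which FYB1 also acts, ITGA2B (0.38) and GP1BA (0.62) were higher and TUBB1 (-1.21) lower in both JOA libraries (36.8% and 18.3% of all genes tested). The list summed to 18.6 to 19.5 FPKM in the controls and 17.4 FPKM in both JOA libraries, with VWF and CLEC1B at 0 throughout. Of the T cell markers only CD3D was tested, with 4.58 and 3.37 FPKM in the controls, against 10.3 and 4.38 FPKM in the JOA libraries. CD8A was at 0 in every library and TRAC at 0 in both controls. The mitochondrially encoded genes held 19.1% and 20.6% of the summed FPKM in the controls and 16.6% and 15.2% with JOA. Of these 13 genes 11 were lower in both JOA libraries (18.3% of all genes tested). The largest differences were in MT-ATP8 (-1.45), MT-CYB (-0.93) and MT-CO3 (-0.74), and MT-CO1 was the most abundant. The part of these shifts in the values of FYB1 and LCP2 was not tested.

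The genes whose pattern over the 4 libraries was nearest to that of FYB1 were VSIG4, MYO15B, SIGLEC12, BAIAP3 and GMFG. Nearness was the Euclidean distance between log2(FPKM + 0.5) values, centred on each gene, over the protein-coding genes tested. VSIG4, a complement receptor of macrophages, was nearest (distance 0.37), with 0.921 and 0.734 FPKM in the controls, against 4.01 and 6.82 FPKM in the JOA libraries. GMFG, an actin regulator of blood cells, was the most abundant, with 4.67 and 5.22 FPKM in the controls, against 14.1 and 16.7 FPKM in the JOA libraries. The distances of MYO15B, SIGLEC12, BAIAP3 and GMFG, 0.65 to 0.69, hardly differed, and only 3 of the 5 genes were among the nearest with a pseudocount of 1. Of the partners LCP2 was the nearest, in place 35 of 11140 genes (distance 1.12), while SKAP2 stood in place 1746 and FERMT3 and GRAP2 in places 8727 and 8969. FYB1 was picked for its rise, and the distance depends in large part on the fold change of each gene. The places are therefore a description and no evidence that a gene follows FYB1.

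The genes beside FYB1 on chromosome 5 were taken by position. Of 14 genes of the table within 1000000 bases of FYB1, 4 reached the minimum mean, and all 4 had both JOA libraries above both controls, as did 36.8% of all genes tested. This count depends in part on the minimum mean. The antisense gene EGFLAM-AS4, counted among the 4, reached that minimum only through its JOA libraries. Its control replicates 1 and 2 stood below the minimum, at 0.326 and 0.330 FPKM. Its JOA replicates 1 and 2 stood at 0.712 and 0.728 FPKM. At an adjusted p limma called 0 of the 4. DAB2, an endocytic adaptor, lies from 39371675 to 39462300. It had 3.64 and 4.77 FPKM in the controls, against 5.79 and 8.79 FPKM in the JOA libraries, a log2 fold change of 0.71 (SE 0.24, limma adjusted p = 0.269). RICTOR, a subunit of mTORC2, lies from 38937919 to 39074408. It had 6.91 and 8.49 FPKM in the controls, against 11.4 and 12.4 FPKM in the JOA libraries, a log2 fold change of 0.60 (SE 0.14, limma adjusted p = 0.240). LIFR, the receptor of leukemia inhibitory factor, differed by 0.30 on the log2 scale and the antisense gene EGFLAM-AS4 by 0.56. The other 10 genes, the complement gene C9 among them, had a mean of at most 0.439 FPKM.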

How the data were processed

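The mRNA of K562 cells was analysed from the table of FPKM values that the authors deposited, with 1 column for each of 2 control and 2 JOA libraries. The authors made these values from stranded, polyadenylated mRNA libraries, and according to the submitters' processing notes the tools included Cufflinks, HTSeq, HISAT2 and Trimmomatic, with hg38 and mm10 as builds, in versions not given in the sources used here. The annotation release, and whether the counting used the strand, are not given either. The study's methods name TPM, but the columns do not sum to 1000000. Symbols from a table of gene names were found for 34749 of 35141 identifiers (98.9%), while GENCODE 29 on GRCh38 gave exon lengths and positions. The second table, of mouse BaF3-T315I cells, was not used.

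Genes were kept from a mean of 0.5 FPKM upward and fitted as log2(FPKM + 0.5). The fit was made in R 4.3.3 by limma 3.58.1, using a variance trend, no covariate and a two-sided test with Benjamini-Hochberg adjustment over all 15635 genes. Fold changes on this scale understate the change of low genes. Reads were recovered as FPKM times exon length and depth, called whole within 0.05 reads, with exact 95% Poisson intervals. For FYB1 the length was searched from 500 to 20000 bases. Depths were set so that most genes with few reads gave whole reads, and were not taken from a source. They differed little between libraries and were 23292640 and 23005478 reads in the controls and 23112802 and 22625603 with JOA. The scripts used Python 3.11.15, and the fit was tested on simulated data. The members, gene lists, alternatives and the rule for named genes were chosen with earlier results of these data known. The rule names all 6 members, the 3 tested genes with the largest absolute fold change and the most abundant gene of each list, the 5 genes nearest to FYB1 and the expressed genes beside it. Genes outside the rule are said to be named after their values were seen, or are other members of a list. The lists were written from background knowledge. Alternatives were other pseudocounts and minimum means, TPM, median-ratio and quantile scaling, voom weights on recovered reads, no variance trend, a replicate block, and each library left out in turn.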

Additional observations from a re-analysis of the deposited data

How the results depend on the processing

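The log2 fold changes of LCP2, SKAP2 and FERMT3 kept their direction under each alternative in which they were tested, and none of the 4 partners tested was called. LCP2, below a mean of 5 FPKM, was not tested with that minimum. That of FYB1 was 2.35 with TPM scaling and 2.08 to 2.29 with 1 library left out, and the other alternatives moved it by less than the spread between replicates. GRAP2 stood at 0.013 with TPM scaling and at -0.42 to 0.27 with 1 library left out. Over all genes, limma called 4 with a minimum mean of 5 FPKM (FYB1, RNU6-944P, PKLR and HBBP1), 1 with voom weights on recovered reads (FYB1), and 0 in every fit with 1 library left out. FYB1 was picked on these values, so its calls are no evidence. At an unadjusted p with the fold threshold, 250 genes were higher and 215 lower with the minimum of 5 FPKM, 1421 were higher with TPM scaling, 504 were higher with quantile normalization, and 571 were lower with median-ratio scaling. With 1 library left out these counts ran from 519 to 1870 higher and from 228 to 752 lower, the lowest without control replicate 1 and the highest without JOA replicate 1. The median log2 fold change of all genes was 0.20 with TPM scaling, 0.10 above that without further scaling. With the longest transcript as the gene length only 52.4% of genes gave whole reads. A pseudocount of 1 kept 3 of the 5 genes nearest to FYB1.

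The labels number the libraries of both groups, and nothing says that the numbers pair them. The deviations of the same-numbered libraries correlated across genes with r = 0.188, which is 2 pairs only. With a replicate block limma called 0 genes (by unadjusted p and fold, 1064 on the higher and 428 on the lower side). The fold changes were as reported (1.16 for LCP2), and the adjusted p from limma was 0.0902 for LCP2 and 0.144 for SKAP2. No gene had a smaller adjusted p than LCP2, but the adjustment gave the same value to many other genes, so LCP2 is not ranked first by it. The comparison of SKAP1, with 10 reads or fewer in each library, is limited by depth.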

Other observations

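GRAP2 was not alone in separating the libraries by their number, a pattern counted after its values were seen. Both replicate 2 libraries lay above both replicate 1 libraries for 2343 of the 15635 genes tested (15.0%) and below them for 2135 (13.7%). The shares that a random numbering of the libraries would give were not worked out, so no effect of the number is read from these counts. A log2 difference of at least 0.58 in the same direction in both groups was found for 277 genes higher in replicate 2 and for 90 genes lower. In 186 genes, GRAP2 included, replicate 2 exceeded replicate 1 by at least as much as in GRAP2 both in the controls and with JOA. LCP2 also had its higher value in replicate 2 of each group, by 0.32 on the log2 scale in the controls and 0.56 with JOA, whereas for FYB1 replicate 2 was the lower control and the higher JOA library. What the numbers stand for is not given in the labels.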
